A study of Mus musculus with 6 samples.

Results

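The genes that carry a cell from G1 into S phase were examined in the dorsal midbrain of mouse embryos after loss of *Ezh2*. The set holds 33 genes, chosen by name from a list of cyclins, cyclin-dependent kinases, E2F factors and components of the DNA replication machinery. All 33 are on the array. They have 85 probe sets annotated to 1 of these symbols alone, out of 45037 probe sets on the array, and each gene is represented by the probe set with the highest mean over the 6 arrays. The whole array gives 18193 genes in this way.

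Total RNA came from dorsal midbrains at embryonic day 10.5, from mice on a C57BL/6 background. The *Ezh2* cko group (n = 3) carried *Wnt1-Cre* and was homozygous for a floxed *Ezh2* allele that loses the SET domain. The control group (n = 3) is given as WT in the labels, whereas by the methods controls were littermates that lacked Cre or kept 1 wild-type *Ezh2* allele, so that at least 1 floxed allele was present in every embryo of either group. *Wnt1-Cre* is also active in the neural crest, and by the paper it recombines incompletely in the most rostral part of the dorsal midbrain, where cells that keep Ezh2 remain. Each group came from 2 litters, which the labels do not assign to samples. The paper speaks of 3 dissected midbrains of each genotype, and the labels do not say how many embryos went into a sample.

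In G1, D-type cyclins bind CDK4 and CDK6 and phosphorylate the retinoblastoma protein, which frees E2F transcription factors to switch on cyclin E and much of the replication machinery. Meanwhile ORC, CDC6 and CDT1 load the MCM helicase onto origins, a step called licensing, and at S phase entry CDC45, GINS and MCM10 turn the loaded helicase on. The midbrain neuroepithelium at this age consists largely of cycling progenitors. The study is concerned with the proliferation of midbrain progenitors, and the comparison here asks at what level this machinery was transcribed without Ezh2.

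E2F factors act through short sites close to the start of many of these genes, and 4 promoter stretches are shown with their E2F words. The 33 genes were chosen by name and not by these words. Since E2F factors switch on much of the replication machinery, the words are still not independent of that choice. The RefSeq table of promoters (GRCm38.p6) holds 27 of the 33 genes. The genes not matched in it are *Ccnd1*, *Ccnd2*, *Ccne2*, *Gins1*, *Gins2* and *Mcm4*. The words searched were TTTCCCGC, TTTGGCGC, TTTGCCGC and TTTCGCGC, and on the other strand GCGGGAAA, GCGCCAAA, GCGGCAAA and GCGCGAAA, in the window from 250 bases before to 50 bases after each start. At least 1 word was present for 12 of the 27 genes (44.4%), and for 704 of all 27025 genes in the table (2.6%). The pentamer CCAAT, a site of the factor NF-Y, was present on either strand for 19 of the 27 (70.4%) and for 41.1% of all genes. The 4 stretches below run up to the base before the start, with the E2F words in capitals. *Cdc6* (chr11:98907991-98908150, plus strand) and *Pola1* (chrX:93632156-93632315, minus strand) were chosen as the genes with a word for which every *Ezh2* cko array was below every control, and *Mcm5* (chr8:75109349-75109508, plus strand) and *Mcm6* (chr1:128359706-128359865, minus strand) because they carry several words and their groups overlapped.
Cdc6: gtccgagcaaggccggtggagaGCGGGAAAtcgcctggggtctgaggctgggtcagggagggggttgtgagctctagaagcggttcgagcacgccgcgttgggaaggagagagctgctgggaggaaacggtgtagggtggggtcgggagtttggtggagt
Pola1: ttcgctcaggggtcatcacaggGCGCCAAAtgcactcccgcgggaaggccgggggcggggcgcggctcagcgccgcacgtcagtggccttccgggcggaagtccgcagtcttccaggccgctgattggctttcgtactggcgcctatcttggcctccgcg
Mcm5: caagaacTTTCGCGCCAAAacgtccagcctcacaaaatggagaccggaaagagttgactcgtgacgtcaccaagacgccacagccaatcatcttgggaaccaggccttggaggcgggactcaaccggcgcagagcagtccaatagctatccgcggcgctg
Mcm6: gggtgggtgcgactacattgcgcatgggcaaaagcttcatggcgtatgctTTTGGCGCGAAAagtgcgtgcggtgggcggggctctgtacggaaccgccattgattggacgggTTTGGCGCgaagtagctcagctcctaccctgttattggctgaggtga

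In the stretches shown, *Cdc6* and *Pola1* have 1 word each, starting 138 bases before the start. In *Mcm5* both words overlap in a single run, and in *Mcm6* there is such a run and a separate word 47 bases before the start. The 12 genes with a word had log2 differences, *Ezh2* cko minus control, of -0.21 to -0.02 with a median of -0.072. The 15 genes in the table without a word had a median of -0.085 and a wider range, -0.30 to 0.17. Every *Ezh2* cko array was below every control for 2 of the 12 genes with a word and for 6 of the 15 without. This order held for 7.88% of all genes. The genes with and without a word are few and were not tested against each other. A match is a run of letters and no evidence that a factor binds.

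By the criterion used here, limma with an adjusted p threshold of 0.05, none of the 33 genes rose or fell. This result, from 3 arrays per group, does not show that their levels were unchanged. The smallest Benjamini-Hochberg adjusted p from limma was 0.543, for *Ccnd3*, whereas 0.302% of all genes (55 of 18193) passed an adjusted p of 0.05, and 0.0055% passed it and were lower. At an unadjusted p under 0.05, 2 of the 33 genes were lower, *Ccnd3* and *Pola1*, and none was higher, and 2.75% of all genes were lower at this level. None reached the fold and p thresholds of the methods, which 0.407% of all genes did.

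For the representative probe sets, the 95% interval of the difference lay between a 1.5-fold decrease and a 1.5-fold increase for all 33 genes. It did so for 94.1% of all genes and 92.9% of the brighter ones, at or above the median probe set mean. Of all 85 probe sets of the 33 genes, 79 had such an interval (92.9%, beside 94.4% of all probe sets). These intervals each cover a single probe set. They rest on the spread among 3 arrays per group, which limma draws toward a value shared by all probe sets. For *Rrm2*, with an SD of 0.02 in either group, the limma standard error was 0.07. The interval excluded 0 for 2 of the 33 genes, and for 6 with a trended and robust prior. The labels do not say that the 3 samples of a group were separate embryos. The methods give n = 3 per group from 2 litters, and state that every experiment used at least 3 embryos per group. By that account the spread between these samples, on which the p-values rest in part, lies between embryos. Any difference between litters is part of it. The signals of these genes were high on the array, with means at the 59.3 to 99.6 percentile of all probe sets, and a probe set close to the top of the scale can respond less than in proportion to its transcript.

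Within this narrow range the signs were uneven. The log2 difference was below 0 for 28 of the 33 genes and above 0 for 5, while it was below 0 for 57% of all genes and for 54.3% of the brighter ones. The median was -0.067, beside -0.019 over all genes and -0.012 over the brighter ones. Every *Ezh2* cko array was below every control for 9 of the 33 genes, which holds for 7.88% of all genes (7.96% of the brighter ones). The opposite order occurred for none of the 33, and for 7.52% of all genes (9.1% of the brighter ones). These genes vary together from array to array, so the counts describe the set and were not tested.

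**Figure D1:**
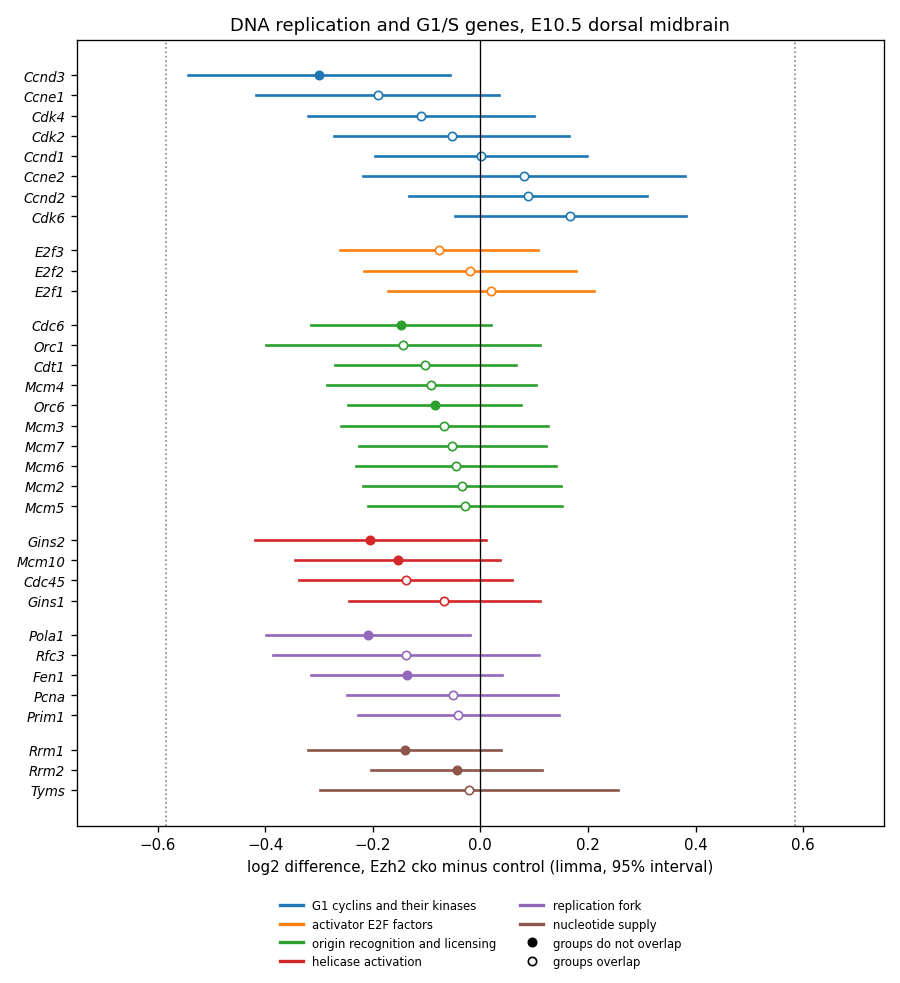
Log2 difference, *Ezh2* cko minus control (x axis), of each of the 33 genes (rows, colored by role), with its 95% interval from limma. Filled points are the 9 genes whose groups do not overlap, dotted lines mark a 1.5-fold change either way, and all intervals lie between them, with the interval of *Ccnd3* reaching furthest to the left.

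The G1 cyclins and their kinases went both ways, with 4 of 8 below 0 and a median of -0.026. *Ccnd3*, which encodes cyclin D3, had log2 signals of 10.25, 10.56 and 10.30 in controls and 10.21, 10.02 and 9.97 in the *Ezh2* cko. The *Ezh2* cko arrays were all lower, the closest by 0.039. The means were 10.37 ± 0.16 (SD, n = 3) and 10.07 ± 0.12 (SD, n = 3), a log2 difference of -0.30 (standard error 0.11, 95% interval -0.54 to -0.06, adjusted p = 0.543 from limma), or 18.8% lower. This was the largest difference among the 33 genes. All 3 probe sets of *Ccnd3* were lower, at -0.30 to -0.05.

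*Ccnd1*, which encodes cyclin D1, a target of canonical Wnt signaling, did not show this. Its signals were 12.66, 12.69 and 12.53 in controls and 12.55, 12.59 and 12.74 in the *Ezh2* cko, with *Ezh2* cko replicate 3 the highest of all 6 arrays and the groups overlapping. The log2 difference was 0.002 (95% interval -0.19 to 0.20, adjusted p = 0.999 from limma), and the lower bound for this probe set was a decrease of 12.6%. Its sign changed with the setting, with values of -0.054 to 0.039 when single arrays were left out. The other probe sets of *Ccnd1* gave 0.09 and 0.25. The paper reports lower cyclin D1 by immunostaining and lower *Ccnd1* by RT-PCR in the mutant midbrain. Those are other measures, not stated to be from embryonic day 10.5, and the array values do not bear on them.

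*Ccnd2*, which encodes cyclin D2, had the highest signal of the 3 D-cyclin probe sets, although signals of different probe sets are not a measure of relative abundance. It was at 13.44, 13.35 and 13.52 in controls and 13.57, 13.65 and 13.36 in the *Ezh2* cko, and *Ezh2* cko replicate 3 lay among the controls. This gave a log2 difference of 0.09 (95% interval -0.13 to 0.31, adjusted p = 0.885 from limma). Of its 7 probe sets 6 were higher, by up to 0.36, and 1 was lower, at -0.11, and none passed the test.

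*Ccne1*, which encodes cyclin E1, the partner of CDK2 at S phase entry, was at 10.71, 10.52 and 10.39 in controls and 10.28, 10.34 and 10.42 in the *Ezh2* cko. A single *Ezh2* cko array, replicate 3, was above the lowest control. The log2 difference was -0.19 (95% interval -0.42 to 0.03, adjusted p = 0.731 from limma). The other probe set of *Ccne1* gave the smallest unadjusted p of all 85, with 9.85, 9.80 and 9.54 in controls and 9.46, 9.40 and 9.21 in the *Ezh2* cko. There the groups did not overlap, and the log2 difference was -0.38 (95% interval -0.62 to -0.13, unadjusted p = 0.00797, adjusted p = 0.403 from limma). *Ccne2*, which encodes cyclin E2, had a difference of 0.08 (adjusted p = 0.931 from limma).

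Of the kinases, *Cdk6* had the highest difference of the 33 genes. Its signals were 9.45, 9.40 and 9.21 in controls and 9.61, 9.55 and 9.41 in the *Ezh2* cko, and *Ezh2* cko replicate 3 lay within the range of the controls. Its log2 difference was 0.17 (95% interval -0.05 to 0.38, adjusted p = 0.755 from limma), and all 3 probe sets were higher, by 0.07 to 0.17. *Cdk4*, the other partner of the D-type cyclins, was at -0.11 with all 3 probe sets lower (adjusted p = 0.845 from limma), and *Cdk2* at -0.05 (adjusted p = 0.937 from limma).

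The activator E2F genes stood nearest to 0, with differences of 0.02 for *E2f1*, -0.02 for *E2f2* and -0.08 for *E2f3*. Among their representative probe sets, the largest decrease at a lower bound was 16.6%, for *E2f3*. The dimmer probe set of *E2f3* was at -0.20 with no overlap between the groups (unadjusted p = 0.0437, adjusted p = 0.647 from limma).

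All 10 genes of origin recognition and licensing had a difference below 0, with a median of -0.076 and a range of -0.15 to -0.03. *Cdc6*, whose product helps to load the helicase, was at 10.72, 10.66 and 10.62 in controls and 10.52, 10.56 and 10.48 in the *Ezh2* cko. The groups were separated by 0.059, the widest gap among the 33 genes. The means were 10.67 ± 0.05 (SD, n = 3) and 10.52 ± 0.04 (SD, n = 3), a log2 difference of -0.15 (95% interval -0.31 to 0.02, adjusted p = 0.715 from limma), or 9.70% lower.

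*Orc6*, which encodes a subunit of the origin recognition complex, varied little among controls, at 10.48, 10.46 and 10.47, and was at 10.36, 10.43 and 10.36 in the *Ezh2* cko. All *Ezh2* cko arrays were lower, by at least 0.031, yet the log2 difference was just -0.08 (95% interval -0.25 to 0.08, adjusted p = 0.844 from limma). *Orc1*, which encodes the largest subunit of that complex, was at -0.14 with overlapping groups, and *Ezh2* cko replicate 3 was its lowest array. *Cdt1*, which encodes the partner of CDC6 in loading, was at -0.10, and its groups overlapped by 0.006.

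The helicase subunits themselves had small differences. The representative probe sets of *Mcm2*, *Mcm3*, *Mcm4*, *Mcm5*, *Mcm6* and *Mcm7* had log2 differences of -0.09 to -0.03, all with overlapping groups and adjusted p-values of 0.86 to 0.964 from limma. *Mcm4* was at the low end at -0.09 and *Mcm5* at the high end at -0.03. At their lower bounds the intervals allowed decreases of 13.4% for *Mcm5* to 17.9% for *Mcm4*. The dimmest probe set of *Mcm5* went further, at -0.25 with 7.77, 7.93 and 7.74 in controls and 7.66, 7.52 and 7.51 in the *Ezh2* cko (adjusted p = 0.522 from limma). The promoters of *Mcm5* and *Mcm6* printed above carry the most E2F words of the 4, and their differences were -0.03 and -0.05. *Mcm3*, *Mcm7* and *Rfc3* also have several words and overlapping groups but were not printed. Their differences were -0.07, -0.05 and -0.14, so the printed stretches do not relate the number of words to the difference.

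The 4 genes of helicase activation had the lowest median of the role groups, at -0.146, and all were below 0. *Gins2*, which encodes a subunit of the GINS complex, was at 10.69, 10.78 and 10.54 in controls and 10.52, 10.54 and 10.34 in the *Ezh2* cko. The groups were separated by just 0.005, between control replicate 3 and *Ezh2* cko replicate 2. The log2 difference was -0.20 (95% interval -0.42 to 0.01, adjusted p = 0.687 from limma), or 13.2% lower, and its other probe set also gave -0.20.

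*Mcm10*, whose product acts in helicase activation, was at 9.90, 9.84 and 9.81 in controls and 9.79, 9.72 and 9.57 in the *Ezh2* cko, without overlap. The log2 difference was -0.15 (95% interval -0.34 to 0.04, adjusted p = 0.746 from limma), and all 3 probe sets were lower, at -0.17 to -0.12. *Cdc45*, whose product joins GINS and the MCM ring in the active helicase, was at 9.38, 9.23 and 9.24 in controls and 9.25, 9.15 and 9.03 in the *Ezh2* cko. Its groups overlapped by 0.015, and the log2 difference was -0.14 (adjusted p = 0.782 from limma). *Gins1* was at -0.07 (adjusted p = 0.894 from limma).

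**Figure D2:**
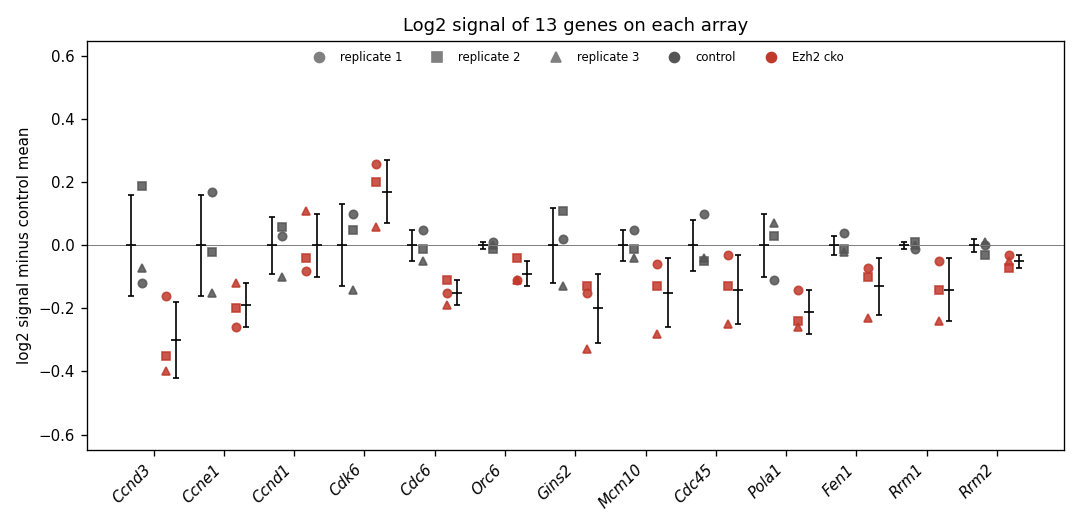
Signal of 13 genes (x axis, ordered by role) on every array, as a log2 distance from the mean of the controls (y axis), with control arrays in grey, *Ezh2* cko arrays in red, a symbol for each replicate number, and the mean and SD (n = 3) as black lines beside the points. *Ccnd3* has the lowest *Ezh2* cko points, *Ccnd1* and *Cdk6* overlap with their controls, and *Ezh2* cko replicate 3 is often the lowest array.

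At the replication fork all 5 genes were below 0, with a median of -0.137. *Pola1* encodes the catalytic subunit of DNA polymerase alpha, which starts new strands together with primase. Its signals were 9.69, 9.83 and 9.87 in controls and 9.66, 9.56 and 9.54 in the *Ezh2* cko, without overlap. The means were 9.80 ± 0.10 (SD, n = 3) and 9.59 ± 0.07 (SD, n = 3), a log2 difference of -0.21 (95% interval -0.40 to -0.02, unadjusted p = 0.0343, adjusted p = 0.614 from limma), or 13.5% lower. The other probe set of *Pola1*, dim at a mean of 3.89, gave 0.005.

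*Fen1*, which encodes the nuclease that trims flaps on the lagging strand, was at 12.33, 12.28 and 12.27 in controls and 12.22, 12.19 and 12.06 in the *Ezh2* cko. All *Ezh2* cko arrays were lower, by at least 0.046, and the log2 difference was -0.14 (95% interval -0.31 to 0.04, adjusted p = 0.757 from limma). *Rfc3*, a subunit of the clamp loader, had the same difference of -0.14 with overlapping groups. *Pcna*, which encodes the sliding clamp and had the highest signal of the 33 genes, was at 13.96, 13.84 and 13.85 in controls and 13.87, 13.91 and 13.71 in the *Ezh2* cko. These overlapped, at a difference of -0.05 (95% interval -0.25 to 0.14, adjusted p = 0.933 from limma). *Prim1*, a primase subunit, was at -0.04.

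For nucleotide supply, the genes of the large and small subunits of ribonucleotide reductase, *Rrm1* and *Rrm2*, were both lower without overlap, by small amounts. *Rrm1* was at 12.19, 12.21 and 12.20 in controls and 12.15, 12.06 and 11.96 in the *Ezh2* cko, a log2 difference of -0.14 (95% interval -0.32 to 0.04, adjusted p = 0.754 from limma). *Rrm2* was at 13.40, 13.37 and 13.41 in controls and 13.37, 13.33 and 13.35 in the *Ezh2* cko, where the gap between the groups was 0.002 and the log2 difference -0.04 (adjusted p = 0.928 from limma). *Tyms*, which encodes thymidylate synthase, had no bright probe set of its own. Its 4 sets had means of 3.35 to 6.47 and the brightest gave -0.02. A further set, annotated to *Tyms* and a pseudogene together and therefore not among the 85, had a mean of 11.22 and a difference of -0.09 (adjusted p = 0.847 from limma).

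Where a gene had several probe sets they did not always point the same way. Of the 29 genes with more than 1 probe set, 17 had all of them lower, 2 had all of them higher (*Ccnd1* and *Cdk6*), and 10 had both signs. Of the 85 probe sets, 60 were lower (70.6%, beside 56.9% of all probe sets). Among the 52 that do not represent a gene, 32 were lower (61.5%), with a median of -0.032 beside -0.019 over all probe sets. None of the 85 passed the adjusted p, which 0.189% of all probe sets did. At an unadjusted p under 0.05 in limma, 6 were lower (3.06% of all probe sets were), in *Ccnd3*, *Ccne1*, *E2f3*, *Mcm5* and *Pola1*. With the mean of all probe sets of a gene in place of the brightest, the median of the 33 genes was -0.074 and 27 were below 0.

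**Figure D3:**
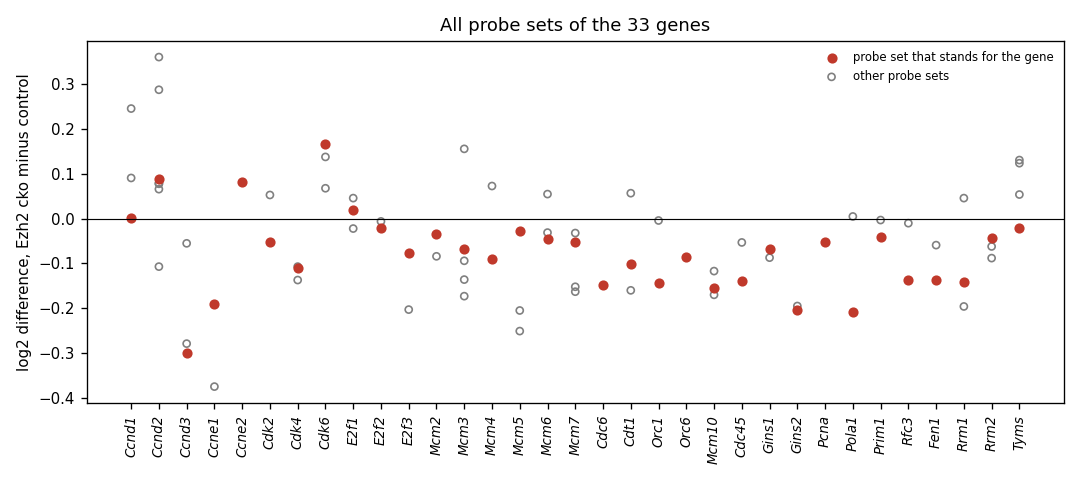
Log2 difference, *Ezh2* cko minus control (y axis), of all 85 probe sets of the 33 genes (x axis, ordered by role). Red points represent the gene and grey circles are its other probe sets, which spread most for *Ccnd2*, from -0.11 to 0.36, while both sets of *Ccne1* and of *Gins2* lie below 0.

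The rest of the replication and G1/S pathway was read from a list of 70 further genes, of which 68 are measured. Among them are the remaining ORC and GINS subunits, the single-strand binding protein RPA, polymerases delta and epsilon, and factors that lay down histones behind the fork. None passed the adjusted p or an unadjusted p of 0.05 in limma, and 63 of the 68 were below 0, with a median of -0.081. The groups did not overlap for 13, all lower, an order found for 7.88% of all genes (7.52% in the opposite direction). The 4 with the smallest p were *Gins3*, the regulator *Cdc25a*, the RNase H2 subunit gene *Rnaseh2a* and the chromatin assembly gene *Chaf1b*, at log2 differences of -0.15, -0.16, -0.19 and -0.23 and adjusted p-values of 0.715 to 0.721 from limma.

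The arrays were not alike within a group, and their order bears on these small differences. When every gene was centered on its own 6-array mean, the median of the 33 genes was 0.073, 0.047 and 0.003 in controls 1, 2 and 3 and 0.016, -0.041 and -0.096 in *Ezh2* cko replicates 1, 2 and 3. The groups thus overlapped, with *Ezh2* cko replicate 1 above control replicate 3. Of the 33 genes, 28 were above their own mean in control replicate 1 and 7 in *Ezh2* cko replicate 3. The 68 further genes had medians of 0.068, 0.038 and 0.014 in controls and 0.014, -0.019 and -0.110 in the *Ezh2* cko, close to the same order.

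Markers of neurons, which have left the cell cycle, ran the other way at the ends of this order. The median deviation of 19 neuron markers was -0.462, -0.068 and -0.013 in controls 1, 2 and 3 and -0.082, 0.172 and 0.452 in *Ezh2* cko replicates 1, 2 and 3. Their mean log2 signal ranged from 9.31 to 9.73 in controls and from 9.69 to 10.19 in the *Ezh2* cko, and 18 of 19 were higher in the *Ezh2* cko, none past the adjusted p. The 15 mesenchyme markers (8.18 to 8.54 and 8.54 to 8.66, with 12 higher) and 12 macrophage markers (6.27 to 6.84 and 6.69 to 6.93, with 11 higher) were also lowest in control replicate 1. The 14 neural progenitor markers ranged from 10.57 to 10.69 in controls and from 10.62 to 10.79 in the *Ezh2* cko, and 8 were higher. Whether a different share of neurons or other cells contributed to the differences of the 33 genes was not tested. In such bulk samples fewer cycling cells and less of a transcript in each cell cannot be told apart.

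**Figure D4:**
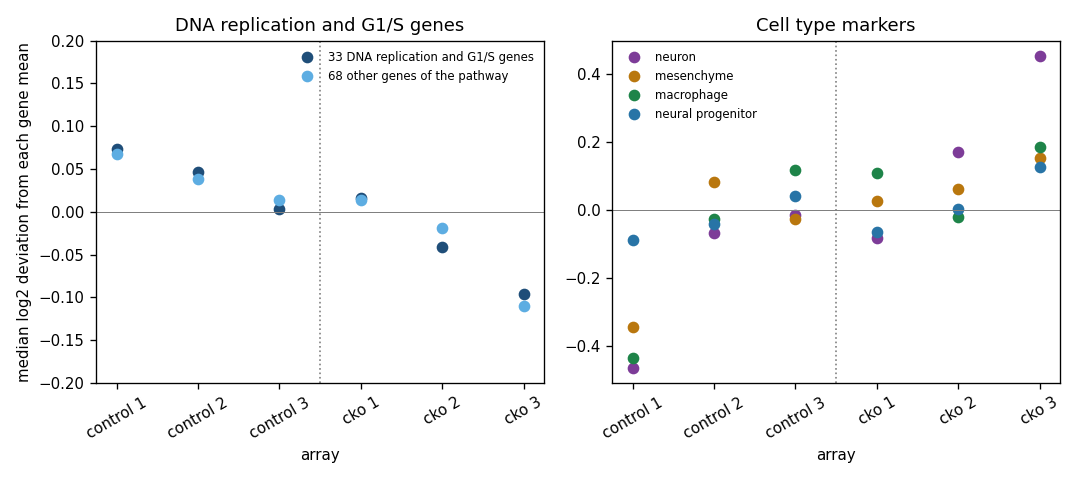
Median log2 distance of the genes of a list from their own 6-array means (y axis), by array (x axis, controls left and *Ezh2* cko right of the dotted line) for the 33 genes and 68 further genes of the pathway (left panel) and for markers of 4 cell types (right panel, on a wider scale). The 33 genes are highest in control replicate 1 (0.073) and lowest in *Ezh2* cko replicate 3 (-0.096), and the neuron markers are lowest and highest in those arrays (-0.462 and 0.452).

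Without both of these arrays, control replicate 1 and *Ezh2* cko replicate 3, the median of the 33 genes was -0.039 and 22 were below 0. These arrays held the highest and the lowest median of the 33 genes. Leaving them out was therefore bound to shrink the average difference, whatever its cause. With the average neuron marker signal included in the fit as a covariate, the median was -0.036 and 19 were below 0. That signal itself ran from 9.31 to 9.73 in controls and from 9.69 to 10.19 in the *Ezh2* cko. The fit therefore cannot cleanly separate it from genotype. Both settings were chosen after the data were seen, and again none of the 33 genes passed the adjusted p. The difference of *Pola1* was as large in both, at -0.24 and -0.23, and that of *Ccnd3* was -0.31 and -0.27. For *Mcm10* it was -0.07 and -0.03, and for *Cdc45* -0.04 and 0.007. *Cdk6* moved further up, to 0.27 and 0.32. When single arrays were left out, 20 of the 28 genes below 0 kept their sign without any 1 array, which for the 9 whose groups did not overlap follows from that order alone.

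As for the samples as a whole, the quartiles of the 6 arrays were nearly equal, with medians of 5.68 to 5.72, and no array duplicated another. The *Ezh2* probe set was at 11.69, 11.76 and 11.66 in controls and 11.79, 11.74 and 11.72 in the *Ezh2* cko, and the tables used here do not place it inside or outside the deleted part, so it does not check the deletion. The mean signals of 12 midbrain identity genes lay between the 59 (*Pax5*) and 98.2 (*En2*) percentile of all probe sets, with *Otx2* at 95.6 and *Wnt1* at 72.8, and RMA signals have no level that separates present from absent.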

How the data were processed

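The deposited values are log2 signals of Affymetrix A430 arrays, 1 array per sample, which the authors made with RMA (per the labels, version not given in the sources used here). RMA subtracts background, gives all arrays a shared distribution and summarizes the probes of each set, so it removes a change shared by most genes, and its signals have no level that marks absence. The number of arrays limits the precision. Samples were grouped by their titles. After leaving out 64 manufacturer control sets, a linear model of *Ezh2* cko minus control without covariates was applied to 45037 probe sets (lmFit, then eBayes, of limma 3.58.1 under R 4.3.3), with Benjamini-Hochberg adjustment over all of them. Of these, 34945 have 1 symbol in the platform annotation, 932 several and 9160 none. Symbols were updated through Entrez identifiers, of which 34741 matched the table on GRCm38.p6. "Lower" and "higher" describe a difference, and "rose" and "fell" need an adjusted p under 0.05.

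The 33 genes, the list of 70 further genes and the marker lists were chosen with earlier results of these data known, so no list was tested. Values on every array are given for *Ccnd1*, for genes whose groups do not overlap and for the 10 with the smallest p. The array values of *Ccnd2* and *Pcna*, and of some dimmer probe sets, were added after their values were seen. No test is named for the arrays in the methods. Their general unpaired test, a trended and robust prior, array weights, the brighter probe sets alone, cyclic loess, median centring, leaving out sets with the suffixes x_at, s_at and a_at, a replicate block, single arrays left out, and other choices of probe set were alternatives. The procedure was tested on simulated data in which probe sets varied independently and the planted differences were larger than those of the 33 genes. That test therefore does not cover small differences or genes that vary together.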

Additional observations from a re-analysis of the deposited data

How the results depend on the processing

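None of the 33 genes passed the adjusted p under any setting, and the smallest adjusted p ranged from 0.376 to 0.86. At an unadjusted p under 0.05 the settings gave 0 to 6 genes. The interval lay within 1.5-fold either way for 31 to 33 of the 33 genes, and for 29 of the 30 measured without x_at, s_at and a_at probe sets. Signs were less stable. Of the 33 genes, 13 changed sign with the neuron term, 8 without control replicate 1 and *Ezh2* cko replicate 3 together, 1 to 6 with single arrays left out (6 without *Ezh2* cko replicate 3), and 0 to 2 under the remaining settings. Among the 13 genes followed under every setting, *Ccnd1* was at -0.008 with array weights, at -0.054 to 0.039 with single arrays left out (-0.048 without control replicate 3 and -0.054 without *Ezh2* cko replicate 3), at -0.044 with the neuron term and at -0.036 without control replicate 1 and *Ezh2* cko replicate 3 together. *Cdc45* was at 0.007 with the neuron term, and the other genes of the 13 did not change sign. The median of the 33 genes was -0.136 with the probe set of smallest p for each gene, a choice that favors large differences, and -0.098 to -0.05 with single arrays left out. The number of genes with every *Ezh2* cko array lower was 7 with cyclic loess (6.69% of all genes), 7 with the mean of all probe sets (7.98%), 6 of 30 without x_at, s_at and a_at sets (7.54%), 10 without both arrays (18.7%), and 9 to 14 with single arrays left out (11.7% to 18.1%, with 14 genes and 18.1% without control replicate 3). The opposite order was found for 1 gene with the mean of all probe sets (6.98% of all genes), for 0 to 2 with single arrays left out (10.9% to 13.3%) and for 4 without both arrays (17.9%). Over all probe sets, 85 passed the adjusted p, against 0 with the unpaired test of the methods, 21 to 46 with single arrays left out, 7 with the neuron term and 4 without both arrays. The cause of these lower counts was not tested.

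Whether equal replicate numbers pair the samples is not known. Deviations from the group means correlated at 0.065, -0.203 and 0.063 between arrays of the same number. Between arrays of different numbers they correlated at -0.16 to 0.123. With 3 arrays per group such values cannot exclude pairing. With the replicate block the median stayed at -0.067, 0 of the 33 genes passed and 59 probe sets did. The block and the neuron term give no count of overlap. With 3 arrays per group, small differences in these bright probe sets could not be resolved.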
